A study of Mus musculus with 16 samples.

Results

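The 8 livers described here came from the mice labelled LRH-1 hep +/+, which are 8 of the 16 arrays of the series, and they were taken by their array titles alone. LRH-1 is the nuclear receptor encoded by Nr5a2, and the +/+ livers are the controls of a study of that receptor in hepatocytes. The knockout arrays were not used, and no genotypes were compared. The mice were 17 to 19 weeks old, lived 5 per cage, ate freely and were killed at 7 am, after which the liver was frozen and 100 ng of its total RNA was labelled for 1 whole-transcript Affymetrix array per liver. The labels do not state sex, strain, light schedule, batch or scan date, and they do not say whether the +/+ mice carry a floxed allele or a Cre transgene. The labels call the livers biological replicates and number them 1 to 8, and those numbers name the livers below. Every value is the log2 of a deposited probe-set intensity, and each gene is read from 1 probe set.

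The liver makes most proteins of blood plasma, stores and releases glucose, makes fatty acids, cholesterol and bile acids, and breaks down drugs. Its transcripts follow the daily clock and the hours since the last meal: insulin raises the genes of fat and cholesterol synthesis, while glucagon, glucocorticoids and fatty acids raise those of glucose production and fat burning. Mice with free food eat mostly in the dark hours.

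Hepatocyte identity was clear in all 8 livers. All 11 measured hepatocyte markers lay among the 5% of genes with the highest mean intensity, and their mean was 11.85 in liver 1, 11.96 in the median liver and 12.00 in liver 7. Nr5a2 itself ranged from 8.45 in liver 1 through a median of 8.70 to 8.78 in liver 5. The Y-linked gene Uty measured 6.70 to 7.16 and Xist, the RNA of the inactive X chromosome, 3.03 to 3.63, so the Y-linked transcript was above the median intensity of all genes and Xist below it in every liver. Both were chosen after their values were seen. The 14 measured genes known to be higher in male mouse liver averaged 10.86 to 11.16.

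Livers 4, 5 and 8 also held transcripts of other tissues. Skeletal muscle genes, a list of 12 drawn up after the values were seen, averaged 9.06 in liver 4 and 5.41 to 5.78 in the other 7. The 9 measured adipocyte markers averaged 7.38 in liver 5, 6.56 in liver 8 and 5.42 to 5.64 in the others. Adipoq, the fat hormone adiponectin, measured 6.21 in liver 5 and 5.04 in liver 8, against 3.05 to 3.44 elsewhere. Ucp1, the uncoupling protein of brown fat, measured 7.50 in liver 5, 4.56 in liver 8 and 3.83 to 4.04 in the rest. Exocrine pancreas markers averaged 4.46 to 4.86, with 0 of 7 above the median intensity of all genes, and neutrophil markers 4.19 to 4.52, with 0 of 10 above it. B and plasma cell markers averaged 4.43 to 4.90, and T and NK cell markers 4.58 to 4.85. For the muscle and fat genes below, SDs are given with and without livers 4, 5 and 8. Over all pairs of genes above the median intensity, leaving out these livers moved the median r to 0.19 from 0.114 and the share of pairs at r of 0.7 or more to 18.9% from 8.56%, and every r without them is to be read beside those values.

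Liver 1 stood apart in another way. The middle 50% of its log2 intensities spanned 2.33 units, against 2.56 in liver 8 and 2.62 to 2.85 in the other 6, and the first principal component, which held 39.9% of the variance, put liver 1 at 0.76 and the others between -0.45 and 0.22. Median intensities of the arrays on the linear scale lay between 39.5 and 43.5. Quantile normalization, which gives all arrays the same distribution, left the first component at 36.9% and liver 1 at 0.76. Liver 1 was the lowest liver for 17 of the 29 gene lists, leaving out those drawn up after values were seen, whose mean lay above the median intensity, hepatocyte markers, plasma proteins and normaliser genes among them, and the highest for 4 of the 9 lists below it. A low liver 1 in a bright list, or a high liver 1 in a dim list, was thus shared with other lists, and its part in the results below was not tested.

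**Figure D1:**
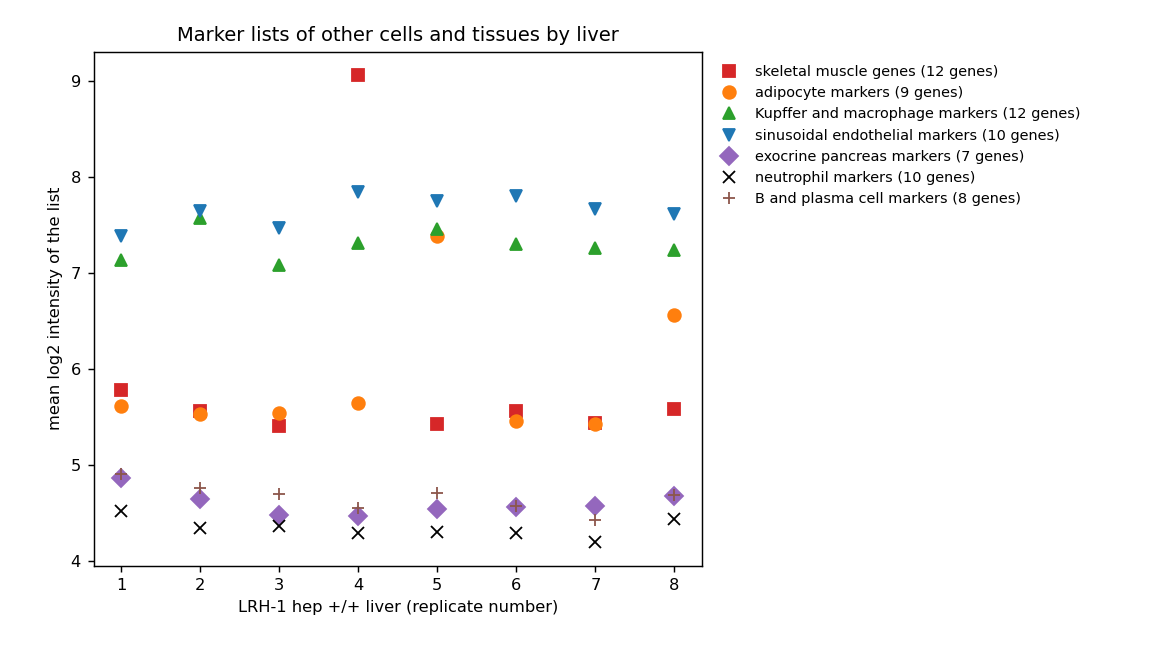
Mean log2 intensity (vertical axis) of 7 marker lists in each LRH-1 hep +/+ liver (horizontal axis, replicate number); each symbol is the mean over the measured genes of a list in 1 liver. Skeletal muscle genes reach 9.06 in liver 4, adipocyte markers 7.38 in liver 5 and 6.56 in liver 8, and the blood cell and pancreas lists stay under 5 in every liver.

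Secreted plasma proteins, apolipoproteins and mitochondrial transcripts gave the brightest signals. Among protein-coding genes Alb, encoding serum albumin, came first with 13.12 ± 0.07 (SD, n = 8), followed by the mitochondrial ND2 with 13.11 ± 0.08 and by Apoe, an apolipoprotein of remnant particles, with 12.99 ± 0.05. The next places went to Trf (transferrin, 12.90), CYTB (12.85), Ttr (transthyretin, 12.76), Scd1 (the stearoyl-CoA desaturase, 12.76), Apoa2 (12.76), Cat (catalase, 12.74) and ND1 (12.73). Rbp4, COX1, Apoa1, Car3, Ahsg, Cyp2e1, Adh1, Mup20, Pzp and Serpina1c completed the first 20, from 12.72 for Rbp4 to 12.54 for Serpina1c. These are ranks of intensity: probe sets differ in how well they bind, so the order is not one of molecules, and saturation of the brightest ones was not tested.

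The top of the ranking was nearly the same in each liver. Of all 19237 genes, 79 were among the 100 brightest in all 8 livers. Alb ranked 2 or 3 in every liver, behind a ribosomal RNA. Trf kept ranks 5 to 7, whereas Serpina1c, an alpha-1 antitrypsin of the mouse, moved between ranks 11 and 43 with 12.27 in liver 1 and 12.83 in liver 2. Of 30 measured plasma protein genes, 29 lay in the top 5%, which starts at 9.37 and holds 962 genes. Igfbp2, a binding protein of insulin-like growth factors and the exception, measured 8.13 in liver 1, 8.84 in the median liver and 9.16 in liver 3.

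Most transcripts differed little between livers. Over the 9618 genes above the median intensity of 5.66, the median SD was 0.144 log2 units, which is 1.11-fold, with quartiles of 0.108 and 0.191 and a jackknife standard error of 0.0169. An SD from 8 livers is itself imprecise: its 95% interval runs from 0.661 to 2.04 times the value. The median SD was 0.157 in the dimmest of 5 equal intensity classes and 0.126 in the brightest. An SD under 0.1 was found for 1887 genes (19.6%) and an SD of 0.5 or more, a factor of 1.41, for 90 genes (0.936%). The genes nearest that limit were Coro6 at 0.507 inside it and Mir122 at 0.496 outside.

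The steadiest of these genes were a mix of housekeeping and liver products. Sympk, a scaffold of mRNA 3' end processing, had the lowest SD of 0.023 and lay between 7.90 and 7.95. Cat followed with 0.028, then Fn1 (fibronectin), Serpinc1 (antithrombin), Scrib, Ganab, Ppp2ca, Bzw1, Rasgrp2 and Cdh2, with SDs up to 0.0325. Plasma proteins had a median SD of 0.07, with 25 of 30 under 0.1 and 0 at 0.5 or more. Over all genes above the median intensity those shares were 19.6% and 0.936%, and the 0 is near the latter. Among 18 genes often used as normalisers the median SD was 0.08 and 12 were under 0.1, beside the same 19.6%. Gapdh ranged from 12.40 to 12.50 and Hprt from 8.33 to 8.50, whereas Tbp, the TATA-binding protein, ranged from 6.76 in liver 1 to 7.38 in liver 4 with an SD of 0.20.

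**Figure D2:**
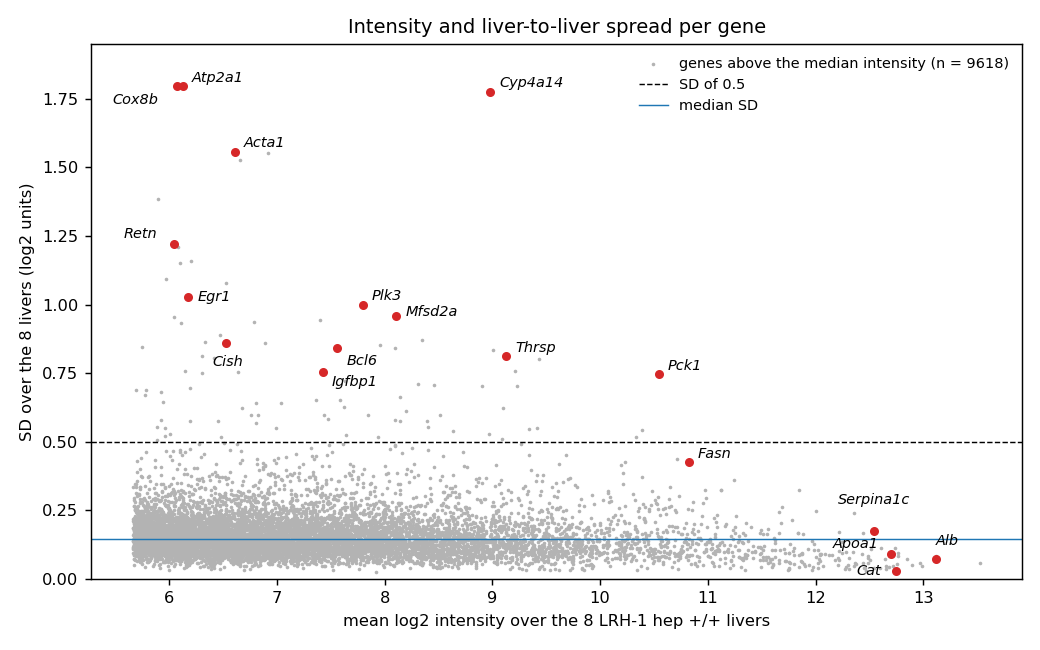
Mean log2 intensity over the 8 livers (horizontal axis) against the SD over the 8 livers in log2 units (vertical axis) for 9618 genes (grey points), with named genes in red, the median SD of 0.144 as a solid line and the SD of 0.5 as a dashed line. Alb and Cat lie at the bright end with SDs of 0.07 and 0.03, and Atp2a1, Cox8b and Cyp4a14 lie highest with 1.80, 1.80 and 1.77. Atp2a1 and Cox8b passed the intensity filter through their high livers.

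Muscle and fat transcripts filled much of the variable end. Atp2a1, the calcium pump of fast skeletal muscle, measured 10.54 in liver 4 and 5.11 to 5.82 in the other 7, and its SD of 1.80 was the largest among the 9618 genes above the median intensity. Its median liver, at 5.51, lay below the filter of 5.66, so Atp2a1 is among those genes only through liver 4. Acta1 (skeletal actin), Tnnt3 (fast troponin T) and Ckm (muscle creatine kinase) measured 10.43, 10.42 and 9.30 in liver 4, and their highest values elsewhere were 6.33, 6.29 and 5.66. Without livers 4, 5 and 8 the SD of Atp2a1 was 0.27 and those of Acta1, Tnnt3 and Ckm 0.16, 0.15 and 0.17. Myoglobin (Mb), desmin (Des), Slc25a4, Eno3, Tnnc2, Tpm1 and Fhl1, with SDs of 0.86 to 1.21 over all 8 livers and of 0.05 to 0.21 without livers 4, 5 and 8, shared that single high liver. Ckm, Mb and Slc25a4, with median livers of 5.41, 5.63 and 5.61, also passed the filter through liver 4.

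Fat cell genes had their maximum in liver 5. Retn, the fat hormone resistin, measured 8.51 in liver 5, 7.41 in liver 8 and 5.19 to 5.59 elsewhere. Fabp4, the fatty acid carrier of adipocytes, measured 8.67, 7.08 and 5.15 to 6.21 in the same order, and Plin1, which coats fat droplets, 7.48, 6.53 and 5.00 to 5.74. Cidec (SD 0.81) and Cav1 (SD 0.80) had the same order of the top livers. Without livers 4, 5 and 8 the SDs were 0.18 for Retn, against 1.22 with them, 0.26 for Fabp4, against 1.16, and 0.29 for Plin1, against 0.85, and those of Cidec and Cav1 were both 0.22. Cox8b, a respiratory subunit of muscle and brown fat, was high in liver 4 (9.14), liver 5 (8.42) and liver 8 (6.66) and lay at 4.65 to 5.12 in the other 5. Lpl, the lipase that frees fatty acids from lipoproteins, measured 8.39 in liver 4, 7.90 in liver 5, 7.01 in liver 8 and 5.88 to 6.75 in the rest. Without these 3 livers the SDs of Cox8b and Lpl were 0.19 and 0.37, against 1.80 and 0.94 with them. Of the 90 genes, 54 kept an SD of 0.5 or more without livers 4, 5 and 8. The median liver of 11 of the 90 was below the intensity filter, Cox8b (5.06), Retn (5.52) and Plin1 (5.41) among them. Such genes passed the filter through their high livers.

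Cyp4a14 had the third largest SD of the 9618 genes above the median intensity. This fatty acid omega-hydroxylase is a textbook target of PPARalpha, the nuclear receptor that turns on fat burning. It measured 6.10 in liver 1 and 6.39 in liver 8, a median of 9.44 and a maximum of 10.51 in liver 6, a range of 21.3-fold. Livers 1 and 8 were low and the other 6 lay at 9.08 or more, with an SD of 1.77 over all 8 and of 1.80 without livers 4, 5 and 8. Cyp4a31, of the same family, measured 7.58 in liver 8, 7.88 in liver 1 and 8.94 to 9.73 elsewhere. Hsd17b6, Cyp2c38 and Cyp39a1 were lowest in liver 1 as well. Relative to each gene's average, these 5 genes had a mean of -1.35 in liver 1, -1.14 in liver 8 and -0.15 to 0.79 in the rest. Livers 1 and 8 were also those with the narrowest intensity distributions, and the part of that in these values was not tested. The SD of Cyp4a14 was 1.77 after quantile normalization and 0.65 without livers 1 and 8, and that of Cyp4a31 was 0.31 without them, against 0.83 with them.

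Other PPARalpha targets moved less than Cyp4a14. On the list of PPARalpha and fasting genes, 4 of 18 above the median intensity had an SD of 0.5 or more. The share over all genes above that intensity was 0.936%. The 4 were Cyp4a14, Vnn1, Acot3 and Angptl4. Vnn1, the pantetheinase vanin 1, ranged from 7.07 to 8.84. Acot3, a peroxisomal thioesterase, ranged from 4.99 to 6.73, and Angptl4, an inhibitor of lipoprotein lipase, from 6.92 to 8.64. Ppara, the receptor itself, had an SD of 0.09, Cpt1a, which admits fatty acids to mitochondria, 0.17, and Fgf21, the fasting hormone of the liver, lay at 4.76 to 5.21, below the median intensity. Averaged over its 20 measured genes, the list stood at 8.15 in liver 1, 8.36 in liver 8 and 8.53 to 8.83 in the other 6, highest in liver 6. The median correlation between its members was 0.39, but 0.17 after quantile normalization and 0.61 without livers 4, 5 and 8. Acot1 and Cyp4a14 had r = 0.77 (exact permutation p = 0.0209, adjusted over the 37 pairs tested p = 0.0552) and rho = 0.83 (exact permutation p = 0.0154, adjusted p = 0.0813), which did not pass the threshold of 0.05. After quantile normalization Acot1 with Cyp4a14 passed, with r = 0.81 (adjusted exact permutation p = 0.0428). The pairs tested here and below were chosen with earlier results of these data known, so their p-values are not those of a blind choice.

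Pck1 and G6pc, the enzymes that open and close glucose production, varied together. Pck1 measured 9.35 in liver 1, 10.72 in the median liver and 11.45 in liver 6, and G6pc 11.28, 11.96 and 12.17 with its lowest and highest values in the same livers. Livers 1, 3, 4 and 8 were low for Pck1 and livers 2, 5, 6 and 7 high. The correlation of Pck1 with G6pc over the 8 livers was r = 0.89 (exact permutation p = 0.00384, adjusted p = 0.0203) with rho = 0.93 (exact permutation p = 0.00223, adjusted p = 0.0413), and r was 0.98 without the 2 livers farthest from the median of Pck1. Leaving out liver 1 gave the highest adjusted exact permutation p for Pck1 with G6pc, 0.120. Igfbp1, a secreted protein that insulin suppresses, ranged from 6.03 in liver 4 to 8.37 in liver 5, and the list of glucose genes as a whole had a median pairwise r of 0.12.

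Mfsd2a shared the low liver 1 with Pck1, but their highest livers differed. This lysolipid transporter, induced by fasting in mouse liver, measured 6.75 in liver 1, 8.00 in the median liver and 9.49 in liver 7. Liver 3 lay above the median for Mfsd2a (8.29) and below it for Pck1 (9.83). Liver 5 was the reverse, with 7.71 for Mfsd2a and 10.94 for Pck1. Acnat2, Ust, Acot3 and Il1b joined Pck1 and Mfsd2a in a group of 6 with a median r of 0.75 (0.86 without livers 4, 5 and 8). Groups such as this were formed by joining genes at an average r of 0.7 or more, so a high r inside a group follows from how it was made and is given as a description. That group averaged -1.06 in liver 1 and 0.83 in liver 7 relative to each gene's mean.

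**Figure D3:**
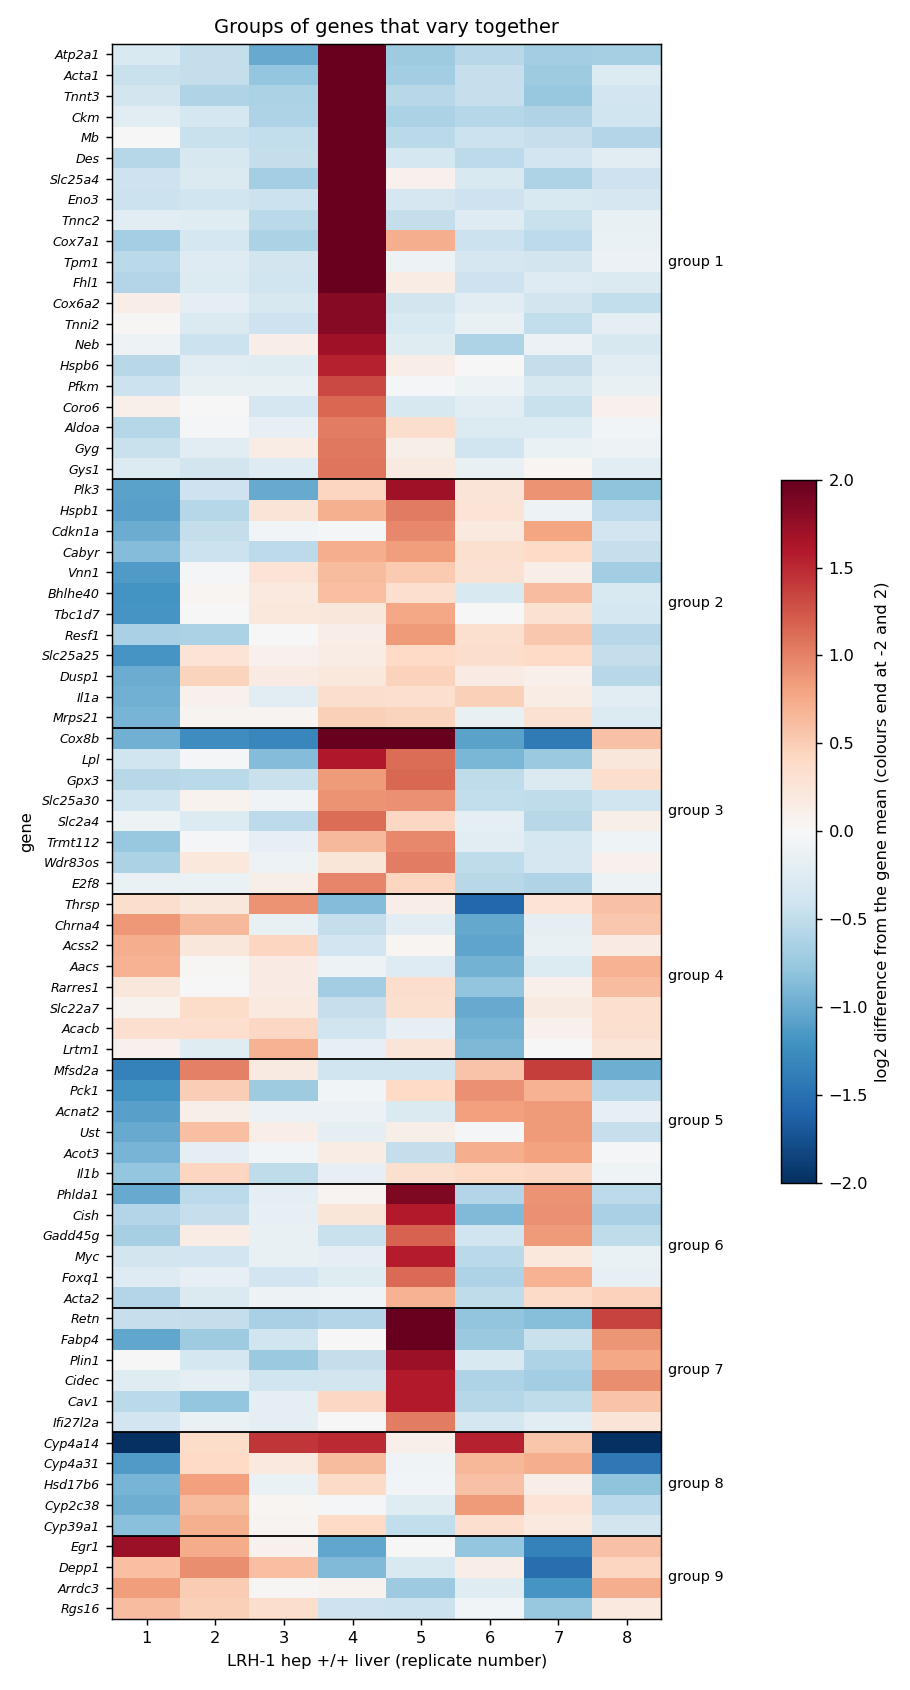
Log2 difference from the gene's mean over the 8 livers (colour scale capped at 2 log2 units in either direction) for the 76 genes (rows) that fell into 9 groups, against the liver number (columns); black lines part the groups. Group 1 is high in liver 4 alone, group 7 in livers 5 and 8, group 4 is low in liver 6, group 8 is low in livers 1 and 8, and group 9 is high in liver 1 and low in liver 7.

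Fat synthesis genes varied together, with liver 6 lowest. Thrsp, the Spot 14 regulator of lipogenesis, measured 7.56 in liver 6, 9.38 in the median liver and 10.02 in liver 3. Fasn, fatty acid synthase, measured 10.06 in liver 6, 10.25 in liver 4 and 10.86 to 11.18 in the others, and Acly, which supplies its acetyl-CoA, 9.38 in liver 6, 9.99 in the median liver and 10.26 in liver 3. Acss2 (9.34 to 11.11) and Aacs (7.69 to 9.33), which activate acetate and acetoacetate, and Acacb (7.31 to 8.68), the acetyl-CoA carboxylase of mitochondria, also had their minimum in liver 6. Liver 6, the lowest for these genes, was the highest liver for Pck1, G6pc and Cyp4a14.

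The list of 21 fatty acid synthesis genes had a median SD of 0.22 and a median pairwise r of 0.62, beside 0.114 over all pairs of genes above the median intensity. Of its pairs 34.8% had r of 0.7 or more, beside 8.56% of all pairs. Its mean was 9.41 in liver 6, 9.66 in liver 4 and 9.88 to 10.11 elsewhere, and without liver 6 the median r was 0.42. Fasn and Acly gave r = 0.90 (exact permutation p = 0.000843, adjusted p = 0.0167) and rho = 0.93 (exact permutation p = 0.00223, adjusted p = 0.0413), with r = 0.73 without livers 6 and 4, the farthest from the median of Fasn. Fasn and Elovl6, the elongase of the same pathway, gave r = 0.96 (exact permutation p = 0.00476, adjusted p = 0.0220) and rho = 0.74 (exact permutation p = 0.0458, adjusted p = 0.141), but r was 0.33 without livers 6 and 4, so that relation rests on those 2 livers. Scd1 varied little, from 12.63 in liver 4 to 12.89 in liver 2, and with Fasn had r = 0.71 (exact permutation p = 0.0542, adjusted p = 0.116) and rho = 0.67 (exact permutation p = 0.0831, adjusted p = 0.205).

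Cholesterol synthesis showed the same low liver. Hmgcs1, which makes the substrate of the rate-limiting reductase, measured 10.11 in liver 6, 10.69 in the median liver and 11.12 in liver 1, and Sqle, squalene epoxidase, 8.63 in liver 6, 9.19 in the median liver and 9.44 in liver 7. Lss measured 7.93 in liver 6 and 8.51 or more elsewhere, Dhcr7 8.60 and 9.06 or more, and Pmvk 7.01 and 7.64 or more. The 20 genes of the pathway had a median pairwise r of 0.69, and 47.9% of their pairs had r of 0.7 or more. Over all pairs of genes above the median intensity those values were 0.114 and 8.56%. The median r of the pathway was 0.72 after quantile normalization, beside 0.001 over all pairs, and 0.46 without liver 6. Over all pairs it was not taken without liver 6. The median SD of the 20 genes was 0.23, and 0 of them reached an SD of 0.5, which is near the 0.936% of all genes. Hmgcs1 and Sqle gave r = 0.89 (exact permutation p = 0.00278, adjusted p = 0.0171) and the same r without the 2 livers farthest from the median of Hmgcs1, and rho was 0.86 (exact permutation p = 0.0107, adjusted p = 0.0661). Insig1, which holds back the SREBP proteins that drive these genes, had r = 0.38 with Sqle (exact permutation p = 0.361, adjusted p = 0.518) and rho = 0.05 (exact permutation p = 0.935, adjusted p = 0.988).

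**Figure D4:**
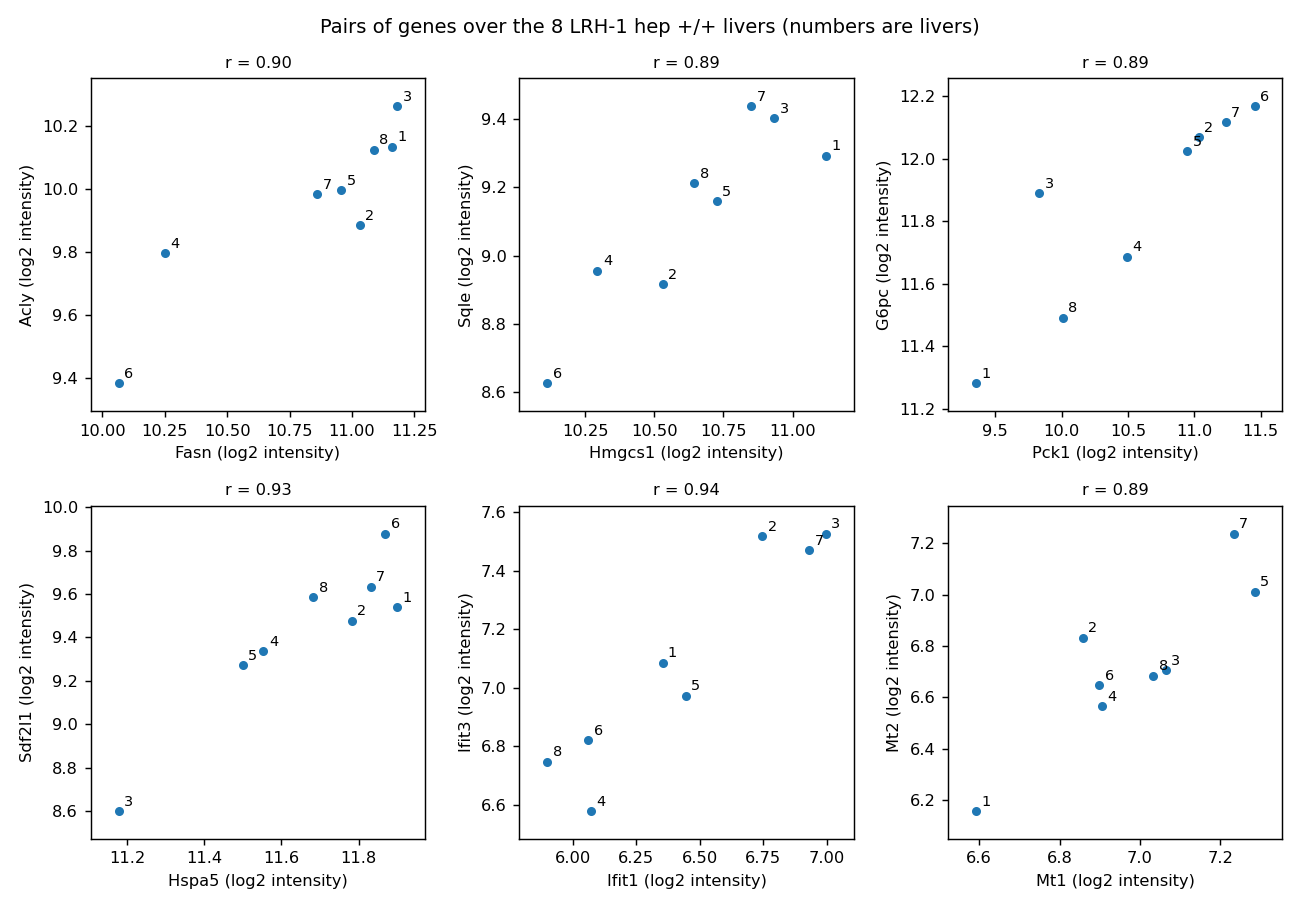
Log2 intensity of the first gene (horizontal axis) against that of the second (vertical axis) for 6 of the 11 gene pairs that passed the threshold; each point is 1 liver with its number. Liver 6 is lowest for Fasn with Acly and for Hmgcs1 with Sqle and highest for Pck1 with G6pc, liver 3 is lowest for Hspa5 with Sdf2l1, and liver 1 is lowest for Mt1 with Mt2.

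Bile acid genes, which LRH-1 is known to control, had a median SD of 0.13, near the 0.144 of all genes. Among 23 genes above the median intensity, 1 (Cyp39a1) had an SD of 0.5 or more (0.52, and 0.48 after quantile normalization), beside 0.936% of all genes. Cyp7a1, which starts the classical route from cholesterol to bile acids, measured 9.75 in liver 2, 10.09 in the median liver and 10.98 in liver 3. Cyp8b1, which makes cholic acid, measured 10.09 in liver 1, 10.53 in the median liver and 10.93 in liver 3. Nr0b2, encoding the repressor SHP, measured 7.87 in liver 7, 8.56 in the median liver and 9.26 in liver 2. Cyp7a1 and Cyp8b1 had r = 0.70 (exact permutation p = 0.0563, adjusted p = 0.116) and rho = 0.60 (exact permutation p = 0.132, adjusted p = 0.272). Cyp7a1 and Nr0b2 had r = -0.15 (exact permutation p = 0.725, adjusted p = 0.746) and rho = -0.29 (exact permutation p = 0.501, adjusted p = 0.686). The nuclear receptor of bile acids, Nr1h4, ranged from 8.46 to 8.89.

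Glucocorticoid-responsive genes were highest in liver 7 and, like most of the bright lists, lowest in liver 1. The mean of the 13 measured genes was 6.82 in liver 1, 7.16 in the median liver and 7.64 in liver 7. Tsc22d3, the leucine zipper protein GILZ, measured 7.52 in liver 1 and 8.75 in liver 7, Fkbp5, a co-chaperone of the receptor, 5.58 and 6.31, and Per1, also a clock gene, 5.73 and 7.30. Per1 was lowest in liver 3 at 5.66. Tsc22d3 and Fkbp5 gave r = 0.83 (exact permutation p = 0.0128, adjusted p = 0.0430) and rho = 0.64 (exact permutation p = 0.0962, adjusted p = 0.209), but r was 0.17 without the 2 livers farthest from the median of Fkbp5 and 0.51 without liver 7, so the relation rests on those livers. Cdkn1a, the cell cycle inhibitor p21, measured 6.37 in liver 1, 7.31 in the median liver and 8.32 in liver 5. The metallothioneins Mt1 (6.59 to 7.29) and Mt2 (6.16 to 7.24) were lowest in liver 1 too and gave r = 0.89 (exact permutation p = 0.00598, adjusted p = 0.0246) and rho = 0.71 (exact permutation p = 0.0576, adjusted p = 0.164), with r = 0.74 without the 2 livers farthest from the median of Mt1.

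Plk3, a stress-responsive kinase, led a group of 12 genes that shared the low liver 1, the liver that was lowest for most bright lists, heat shock genes and normaliser genes included. It measured 6.73 in liver 1, 7.73 in the median liver and 9.50 in liver 5. Hspb1 (7.37 to 9.49), a small heat shock protein, Bhlhe40 (6.25 to 8.05), a clock repressor, Dusp1 (8.10 to 9.55), a phosphatase of MAP kinases, and Vnn1 were lowest in liver 1 as well. The median r of the group was 0.80, and 0.77 without livers 4, 5 and 8. Quantile normalization kept 7 of the 12 together. Heat shock genes, of which Hspb1 is a member, averaged 8.53 in liver 1, 8.87 in the median liver and 9.21 in liver 7, with a median r of 0.57 (0.85 without livers 4, 5 and 8).

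Clock genes ranged from steady to variable. Of the 13 above the median intensity, 6 had an SD under 0.144, among them Rora (0.07) and Nfil3 (0.14). As 0.144 is the median SD, 50% of all genes above that intensity lie under it by definition. The 6 of 13 is near that share. Arntl, encoding BMAL1, ranged from 7.30 to 7.49 (SD 0.07) and Clock from 8.78 to 9.05 (SD 0.09). Npas2, a relative of Clock, ranged from 7.20 in liver 8 to 8.25 in liver 7, and Cry1 from 6.53 in liver 1 to 7.44 in liver 4. Of the 13, 2 (Bhlhe40 and Per1) had an SD of 0.5 or more, beside 0.936% of all genes above the median intensity. Arntl and Clock had r = 0.52 (exact permutation p = 0.190, adjusted p = 0.320) and rho = 0.48 (exact permutation p = 0.243, adjusted p = 0.409). The median r of the list was 0.28 on the deposited scale, 0.52 with arrays centred on their medians, 0.06 without livers 1 and 8 and -0.09 after quantile normalization, so its sign depends on the scaling.

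Liver 5 held the maximum of a group of growth and early response genes. Phlda1 measured 9.27 in liver 5, 8.30 in liver 7 and 6.40 to 7.46 elsewhere. Cish, a feedback inhibitor induced by growth hormone through STAT5, measured 8.11 in liver 5, 7.45 in liver 7 and 5.65 to 6.78 in the others. Myc measured 7.34 in liver 5 and 5.23 to 5.98 elsewhere, and Gadd45g and Foxq1 were highest in livers 5 and 7. The SD of Myc was 0.67, and 0.29 without livers 4, 5 and 8, while those of Phlda1 and Cish were 0.94 and 0.86, and 0.72 and 0.70 without them. The median r of this group of 6 was 0.89, and 0.93 over the 5 livers other than 4, 5 and 8. Liver 5 is also the liver with the most adipocyte transcript, whose part in these values was not tested.

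Bcl6, a repressor that growth hormone lowers in mouse liver, ranged from 6.17 in liver 7 through 7.39 to 8.68 in liver 6. The order of its extreme livers was opposite to that of Cish, which was lowest in liver 6 and second highest in liver 7. Onecut1 measured 6.90 in liver 6 and 7.88 to 8.77 elsewhere, and Socs2 6.02 in liver 7 and 7.16 in liver 4. Igf1, the main hormone that growth hormone induces, varied little, from 10.71 in liver 6 to 10.98 in liver 7. These growth hormone genes were grouped after their values were seen.

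Egr1, an immediate early transcription factor, had an SD of 1.03. It measured 4.83 in liver 7, 6.23 in the median liver and 7.91 in liver 1. Depp1 (6.59 to 9.02), Arrdc3 (7.72 to 9.74) and Rgs16 formed a group with it, with a median r of 0.83, and their group mean was highest in liver 1 and lowest in liver 7. That order is the reverse of the glucocorticoid list. Fos, of the same class as Egr1, lay below the median intensity, and their r of 0.70 (exact permutation p = 0.0537, adjusted p = 0.116) and rho of 0.64 (exact permutation p = 0.0962, adjusted p = 0.209) did not pass.

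Chaperones of the endoplasmic reticulum were low in liver 3. Hspa5, the chaperone BiP, measured 11.18 in liver 3, 11.73 in the median liver and 11.90 in liver 1, and its partner Sdf2l1 8.60 in liver 3, 9.51 in the median liver and 9.88 in liver 6. Creld2 (8.11 in liver 3 and 9.18 to 9.85 elsewhere), Dnajb9 (9.37 and 10.05 to 10.57), Manf (7.71 and 8.29 to 8.69) and Hsp90b1 (10.96 and 11.11 to 11.51) shared that minimum. Xbp1, a transcription factor of the response, ranged from 10.37 to 10.68 and was not low in liver 3. Hspa5 and Sdf2l1 gave r = 0.93 (exact permutation p = 0.00193, adjusted p = 0.0167), rho = 0.81 (exact permutation p = 0.0218, adjusted p = 0.101) and r = 0.66 without the 2 livers farthest from the median of Hspa5. The list of 16 ER stress and ATF4 genes had a median r of 0.30 with 31.7% of pairs at 0.7 or more. Over all pairs of genes above the median intensity those values were 0.114 and 8.56%. Without liver 3 the median r of the list was -0.06. Asns, a target of the amino acid arm, followed another order, with 5.14 in liver 7, 6.65 in the median liver and 7.03 in liver 5.

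The promoters of 4 of these chaperone genes are shown, whose transcripts shared the low liver. Dnajb9 and Manf shared it too and are not shown. Each sequence is the 250 bases before the RefSeq start (GRCm38.p6), read 5′ to 3′ on the gene's strand, and capitals mark the ER stress element on either strand, searched as the letters CCAAT and CCACG with any 9 bases between them. Hspa5 lies on chr2:34771840-34772089 (+), Sdf2l1 on chr16:17132384-17132633 (-), Hsp90b1 on chr10:86705445-86705694 (-) and Creld2 on chr15:88819396-88819645 (+).
Hspa5: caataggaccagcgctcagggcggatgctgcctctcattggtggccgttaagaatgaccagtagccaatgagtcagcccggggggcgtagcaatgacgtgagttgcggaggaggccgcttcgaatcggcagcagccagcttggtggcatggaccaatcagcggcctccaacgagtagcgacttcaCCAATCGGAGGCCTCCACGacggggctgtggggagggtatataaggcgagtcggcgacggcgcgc
Sdf2l1: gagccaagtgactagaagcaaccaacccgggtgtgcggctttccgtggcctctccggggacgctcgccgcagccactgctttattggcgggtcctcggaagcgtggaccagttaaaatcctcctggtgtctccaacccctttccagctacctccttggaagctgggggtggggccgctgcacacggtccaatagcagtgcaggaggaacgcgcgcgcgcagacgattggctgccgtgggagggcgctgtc
Hsp90b1: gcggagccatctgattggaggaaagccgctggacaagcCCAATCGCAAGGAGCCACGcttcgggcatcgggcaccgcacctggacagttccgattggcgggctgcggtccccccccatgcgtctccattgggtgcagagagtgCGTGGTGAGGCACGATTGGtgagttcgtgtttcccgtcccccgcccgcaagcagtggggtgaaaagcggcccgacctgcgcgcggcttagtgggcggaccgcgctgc
Creld2: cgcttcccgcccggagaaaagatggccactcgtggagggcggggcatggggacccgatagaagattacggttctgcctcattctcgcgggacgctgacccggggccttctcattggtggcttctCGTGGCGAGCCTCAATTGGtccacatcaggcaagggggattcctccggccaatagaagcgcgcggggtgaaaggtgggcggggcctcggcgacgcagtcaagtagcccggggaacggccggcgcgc
The letters occur 1 time for Hspa5, 2 times for Hsp90b1 and 1 time, on the other strand, for Creld2, and these letters are not in the window of Sdf2l1. Of the 15 list members with a window, 5 hold them, beside 37 of 32851 windows of this length (0.113%). The 5 are Calr, Creld2, Dnajc3, Hsp90b1 and Hspa5, so Dnajb9 and Manf are not among them. Whether the letters relate to the low liver was not tested.

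Interferon-induced genes varied together. Ifit1 and Ifit3, antiviral proteins that bind foreign RNA, ranged from 5.90 in liver 8 to 7.00 in liver 3 and from 6.58 in liver 4 to 7.53 in liver 3. Livers 2, 3 and 7 were high for both. The correlation of Ifit1 with Ifit3 was r = 0.94 (exact permutation p = 0.00226, adjusted p = 0.0167), with rho = 0.88 (exact permutation p = 0.00724, adjusted p = 0.0661) and r = 0.91 without the 2 livers farthest from the median of Ifit1. Usp18, which limits interferon signalling, ranged from 6.25 in liver 8 to 7.29 in liver 2, and the chemokine Cxcl10 from 5.78 in liver 1 to 6.91 in liver 5. The 18 genes above the median intensity had a median SD of 0.29, a median r of 0.62 and 35.3% of pairs at 0.7 or more. Over all pairs of genes above that intensity the median r was 0.114 and the share 8.56%. Of the 18, 0 reached an SD of 0.5, near the 0.936% of all genes. Isg15 and Irf7 of the same list had r = -0.25 (exact permutation p = 0.553, adjusted p = 0.654) and rho = -0.24 (exact permutation p = 0.582, adjusted p = 0.769). Isg15, with a mean of 5.23, lay below the median intensity, and its r with Irf7 was 0.36 after quantile normalization.

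The promoters of the correlated pair follow, for the same 250 bases, with Ifit1 on chr19:34640639-34640888 (+) and Ifit3 on chr19:34583279-34583528 (+), and capitals mark the interferon-stimulated response element, searched on both strands as GAAA and GAAA with any 2 bases between them and found here on the other strand.
Ifit1: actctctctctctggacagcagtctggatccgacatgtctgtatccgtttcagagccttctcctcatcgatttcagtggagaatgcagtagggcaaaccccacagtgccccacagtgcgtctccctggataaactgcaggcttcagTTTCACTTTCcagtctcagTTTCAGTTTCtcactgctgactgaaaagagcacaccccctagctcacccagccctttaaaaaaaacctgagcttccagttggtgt
Ifit3: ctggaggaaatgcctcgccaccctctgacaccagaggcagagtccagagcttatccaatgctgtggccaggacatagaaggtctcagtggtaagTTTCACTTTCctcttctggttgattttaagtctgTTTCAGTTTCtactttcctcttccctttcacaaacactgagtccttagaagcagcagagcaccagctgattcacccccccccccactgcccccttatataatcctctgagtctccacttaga
Each window holds the letters 2 times. They are in 10 of the 17 list members with a window and in 978 of all 32851 windows (2.98%).

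Markers of resident macrophages and endothelium varied more than those of hepatocytes, with median SDs of 0.24, 0.19 and 0.10. The hepatocyte markers were also brighter, with a mean of 11.96 in the median liver against 7.28 and 7.66. Over all genes above the median intensity, the median SD was 0.126 in the brightest of 5 intensity classes and 0.146 in the middle class. The part of intensity in this difference was not tested. The mean of the 12 Kupffer and macrophage markers was 7.09 in liver 3, 7.28 in the median liver and 7.57 in liver 2. C1qa, a complement subunit made by macrophages, ranged from 7.24 in liver 1 to 7.96 in liver 2, Cd5l, a secreted Kupffer cell protein, from 7.35 in liver 3 to 8.28 in liver 2, and Clec4f, a lectin of Kupffer cells, from 8.14 in liver 1 to 8.57 in liver 2. Among the 11 markers above the median intensity the median SD was 0.24 and the median r 0.73, with 54.5% of pairs at 0.7 or more. Over all pairs of genes above that intensity the median r was 0.114 and the share 8.56%. In these bulk samples fewer cells of a type and less RNA per cell cannot be told apart. Clec4f and Cd5l alone gave r = 0.65 (exact permutation p = 0.0807, adjusted p = 0.142) and rho = 0.57 (exact permutation p = 0.151, adjusted p = 0.294).

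Antigen presentation genes, grouped after their values were seen, had the same high liver. Cd74, the invariant chain, measured 9.22 in liver 2, 9.01 in liver 5 and 7.97 to 8.48 elsewhere, and H2-Aa 9.03, 8.65 and 7.65 to 8.12. Saa2, an acute phase protein of hepatocytes, was also highest in liver 2, at 8.01 against 5.99 to 6.86 in the others. Of 21 acute phase genes above the median intensity, 1 (Saa2, 0.62) had an SD of 0.5 or more. The share over all genes above that intensity was 0.936%. Orm2 ranged from 6.99 in liver 1 to 8.35 in liver 7. Sinusoidal endothelial markers averaged 7.39 in liver 1, 7.66 in the median liver and 7.85 in liver 4, with a median r of 0.68 (0.57 after quantile normalization). Lyve1, a hyaluronan receptor of those cells, ranged from 5.87 in liver 3 to 6.91 in liver 4.

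Collagens Col1a1 (6.26 to 6.74) and Col3a1 (6.15 to 6.60) gave r = 0.93 (exact permutation p = 0.00188, adjusted p = 0.0167), rho = 0.88 (exact permutation p = 0.00724, adjusted p = 0.0661) and r = 0.87 without the 2 livers farthest from the median of Col1a1. The neutrophil genes S100a8 (3.38 to 4.05) and S100a9 (4.62 to 5.22), both below the median intensity and highest in liver 1, as 4 of the 9 dim lists were, gave r = 0.91 (exact permutation p = 0.00166, adjusted p = 0.0167) and rho = 0.76 (exact permutation p = 0.0368, adjusted p = 0.124). For S100a8 with S100a9 r was 0.61 without the 2 livers farthest from the median of S100a8, and the adjusted exact permutation p was 0.0556 after quantile normalization. The B cell receptor chains Cd79a (3.49 to 4.45) and Cd79b (5.29 to 5.92) were lowest in liver 7 and gave r = 0.86 (exact permutation p = 0.0108, adjusted p = 0.0401) and rho = 0.69 (exact permutation p = 0.0694, adjusted p = 0.183), with r = 0.35 without the 2 livers farthest from the median of Cd79a, so that relation rests on them.

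Xenobiotic and sex-biased genes gave a few wide ranges. Cyp2b10, the classical target of the receptor CAR, measured 5.41 in liver 4, 6.12 in the median liver and 7.55 in liver 3, a range of 4.40-fold, whereas Cyp3a11 ranged from 10.81 to 11.29. Cyp2b10 and Cyp3a11 had r = 0.78 (exact permutation p = 0.0186, adjusted p = 0.0552) and rho = 0.86 (exact permutation p = 0.0107, adjusted p = 0.0661). After quantile normalization Cyp2b10 with Cyp3a11 passed, with r = 0.84 (adjusted exact permutation p = 0.0381). Cyp17a1, a steroid hydroxylase higher in females, ranged from 6.16 to 7.88 with its maximum in liver 3 as well. Of genes higher in males, Selenbp2 ranged from 10.07 in liver 6 to 11.27 in liver 1, and Hsd3b5 and Slco1a1, both male-biased, had r = -0.73 (exact permutation p = 0.0469, adjusted p = 0.116) and rho = -0.79 (exact permutation p = 0.0279, adjusted p = 0.103). Cyp26a1, the retinoic acid hydroxylase, measured 5.10 in liver 2, 6.41 in the median liver and 7.66 in livers 3 and 7. Csad, which makes taurine, was 8.34 to 8.53 in livers 1, 2 and 7 and 9.30 to 10.07 in the other 5.

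Spread and co-variation of the lists followed different orders. Of the lists drawn up after their values were seen, skeletal muscle genes had a median SD of 1.30 and a median r of 0.99, growth hormone genes 0.62 and 0.37, brown fat genes 0.61 and 0.54, and antigen presentation genes 0.46 and 0.96. Among the 31 other lists with 5 or more members above the median intensity, the median SD was highest for adipocyte markers (0.81), the female-biased genes (0.55), immediate early genes (0.39), glucocorticoid-responsive genes (0.31) and interferon-induced genes (0.29). It was lowest for plasma proteins (0.07), normaliser genes (0.08) and hepatocyte markers (0.10). The adipocyte members Retn and Plin1 passed the intensity filter through their high livers, with median livers of 5.52 and 5.41 against a filter of 5.66. How far that filter shaped the adipocyte values was not tested. Among the same 31 lists the median r was highest for adipocyte markers (0.83, and -0.14 without livers 4, 5 and 8), Kupffer markers (0.73), cholesterol synthesis (0.69) and sinusoidal endothelium (0.68), and lowest for iron genes (0.05). For plasma proteins it was 0.27 as deposited, 0.63 with arrays centred on their medians and 0.01 after quantile normalization, and for the respiratory chain 0.33, 0.62 and 0.06.

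**Figure D5:**
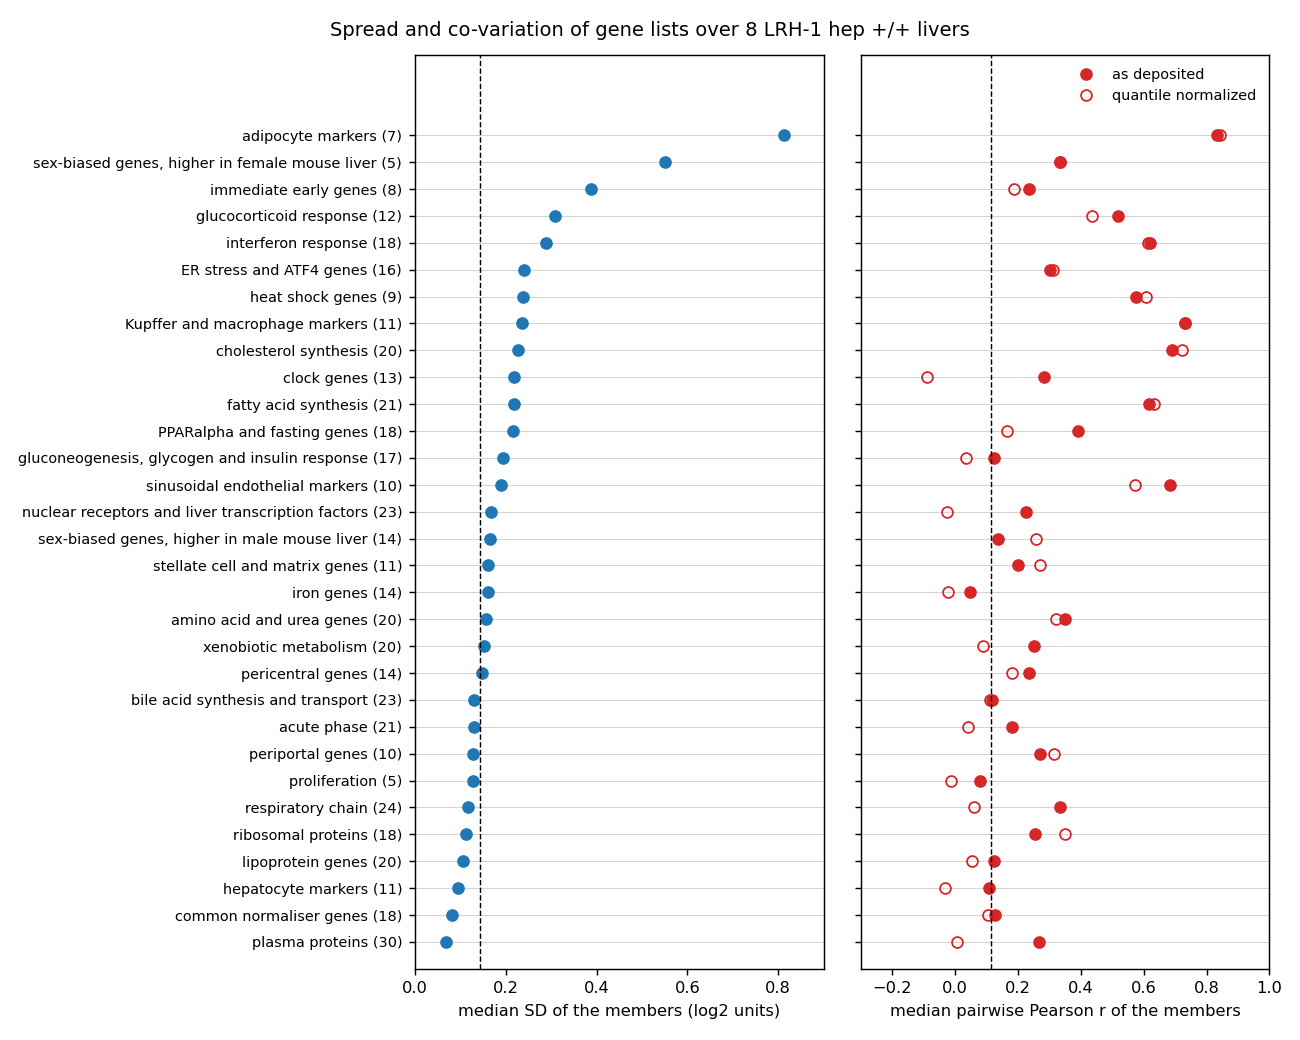
Median SD in log2 units (left) and median pairwise Pearson r (right) of the members above the median intensity for 31 gene lists. Rows are the lists with 5 or more such members (number in brackets), leaving out those drawn up after their values were seen. Filled symbols are as deposited and open symbols after quantile normalization. Dashed lines are the as-deposited values over all genes (left) and all pairs (right, 0.114). After quantile normalization the median r over all pairs was 0.001. Of the lists drawn, adipocyte markers lead both panels at 0.81 and 0.83, cholesterol and fatty acid synthesis lie at 0.69 and 0.62 as deposited and at 0.72 and 0.63 after quantile normalization, and clock genes lie at 0.28 and -0.09. Retn and Plin1 of the adipocyte list passed the intensity filter through their high livers.

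Of 57 gene pairs set for testing, 37 were measured and 11 passed an adjusted p under 0.05 by the exact two-sided permutation test of Pearson's r, all with a positive r, while 15 had an unadjusted p under 0.05. The pairs, like the lists not drawn up after values were seen, were chosen with earlier results of these data known. Their p-values are thus not those of a blind choice. By Spearman's rho 2 passed, Fasn with Acly and Pck1 with G6pc. After quantile normalization 10 passed, 8 of them the same pairs. Cyp2b10 with Cyp3a11 and Acot1 with Cyp4a14 passed there only, and S100a8 with S100a9, Cd79a with Cd79b and Fkbp5 with Tsc22d3 did not. None of the 11 passed in each of the 8 runs that left out 1 liver: 0 pairs passed without liver 6, 4 without liver 1, 7 without liver 4 and 7 without liver 7. Over the 5 livers other than 4, 5 and 8, the r of the 11 pairs lay between 0.90 for S100a8 with S100a9 and 0.97 for Ifit1 with Ifit3.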

How the data were processed

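Total RNA of 8 LRH-1 hep +/+ livers was measured on 1 Affymetrix array each. The authors deposited linear intensity values per probe set, and the submitters' processing notes name Affymetrix Expression Console. For the summary algorithm, background correction and normalization, nothing is stated in the labels. Values were put on the log2 scale from the deposited intensities, with no pseudocount and no further scaling, and no depth applies to arrays, so the number of livers limits the precision.

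Of 35556 probe sets, 21456 were annotated to 1 gene, 2376 to several and 11724 were not listed in the annotation used here. Only those with 1 gene were kept, and the probe set of highest mean stood for each of 19237 genes. For 1343 genes with several probe sets, their mean was an alternative. The SD was taken over the 8 livers for 9618 genes above the median of the gene means, and its 95% interval was the chi-square one. Pearson's r and Spearman's rho of gene pairs had exact two-sided p-values over all 40320 pairings of the livers, adjusted by Benjamini-Hochberg over the 37 pairs measured.

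The text names the 20 genes of highest mean, the 30 of highest and 10 of lowest SD, up to 4 members of highest SD per gene list, both genes of each pair, and members of groups. Those groups were made from the 100 genes of highest SD by average linkage on 1 - r, joined up to a distance of 0.3. Predicted loci and small RNAs were left out of this rule. Any other gene named, and the lists of skeletal muscle, brown fat, growth hormone and antigen presentation genes, were chosen after their values were seen. The other lists and pairs were chosen with earlier results of these data known, as were the livers described. Promoter windows came from RefSeq (GRCm38.p6).

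Alternatives were quantile normalization, centring, averaged probe sets, other filters and thresholds, a scaled median absolute deviation, Spearman's rho and leaving out livers. Leaving out livers 4, 5 and 8 together, and livers 1 and 8 together, was chosen after seeing the data. The scripts were tested on simulated data and used Python 3.11.15, numpy 2.4.6, pandas 2.3.3, scipy 1.17.1 and matplotlib 3.10.9.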

Additional observations from a re-analysis of the deposited data

Results flagged for a closer look

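For 24 genes and 1 list mean, a single liver lay farther from the others than Dixon's 95% limit for 8 values allows. For values not picked by their spread, chance alone gives such a flag in about 1 of 20 groups. Here 166 genes and 14 list means were looked at. Many of these genes were named for a high SD over the same livers or after their values were seen. A single far liver raises the SD, so the 1 of 20 does not apply to them. Genes that share 1 far liver are not separate events.

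Liver 4 was the single high liver for 12 of these genes. Acta1 measured 10.43 there, Tnnt3 10.42, Atp2a1 10.54 and Ckm 9.30, the actin, troponin, calcium pump and creatine kinase of skeletal muscle. Eno3 measured 9.19, Mb 9.05, Fhl1 8.96, Des 8.94, Slc25a4 8.62, Tpm1 8.45, Tnnc2 8.38 and Coro6 7.04 in the same liver. The mean of the skeletal muscle list, 9.06 in liver 4, stood apart in the same way.

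Liver 3 was the single low liver for the endoplasmic reticulum chaperone genes Dnajb9 (9.37), Creld2 (8.11) and Manf (7.71). Liver 6 was the single low liver for the cholesterol synthesis genes Lss (7.93) and Pmvk (7.01). Liver 5 was the single high liver for Ucp1 (7.50) and Myc (7.34), liver 2 for Saa2 (8.01) and liver 7 for Fkbp5 (6.31). Liver 6 was the single high liver for the clock gene Nfil3 (8.29). Apoa2 was low in liver 1, at 12.64, and so was the small nucleolar RNA Snord14e, at 6.37.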

How the results depend on the processing

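No paired analysis was possible because only the LRH-1 hep +/+ livers were used, so there was no second group to pair with. The median SD over the 8 control livers, 0.144, was 0.163 with arrays centred on their medians, 0.124 with the scaled median absolute deviation, 0.124 without livers 1 and 8, and 0.126 to 0.147 with each liver left out in turn, the lowest without liver 1. The number of genes with SD of 0.5 or more, 90, was 151 above the 25th percentile of intensity, 42 above the 75th and 170 with no filter. It was 168 at a threshold of 0.4 and 45 at 0.7, and 75 to 99 with each liver left out. With the probe sets of a gene averaged it was 89, and the SD of Ckm was 0.76 against 1.38. In that setting 0 heat shock genes had an SD of 0.5 or more, against 1 (Hspb1) in the main one. Among nuclear receptors and liver transcription factors 1 did, against 2. The number of fixed gene pairs past the threshold, 11, was 0 to 10 with each liver left out, 2 by Spearman's rho, 10 after quantile normalization and 13 with centred arrays. Without livers 4, 5 and 8, and without livers 1 and 8, 0 passed, but 5 livers allow only 120 pairings and 6 livers 720. The cause of these changes was not tested beyond the smaller number of livers or genes that each alternative leaves. Of the SDs of named genes under the alternatives, 351 moved by less than their error and 39 by more. None of the 11 pairs turned its sign in these alternatives. Median correlations of lists that turned their sign, beside those given above for clock, ER stress and adipocyte genes, included those of nuclear receptors (-0.03 after quantile normalization), immediate early genes (-0.06 without liver 5) and female-biased genes (-0.01 without liver 1 and -0.02 without livers 1 and 8). Without livers 4, 5 and 8 and with the members kept, they also included stellate cell and matrix genes (-0.06), smooth muscle and mesothelial markers (-0.45) and brown fat genes (-0.18). The missing account of normalization, the single group and 8 livers limit all values.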

Other observations

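Small nuclear and nucleolar RNAs were left out of the rule for named genes. Of 36 above the median intensity with symbols starting in Rnu or Snor, 6 had an SD of 0.5 or more. The share over all genes above that intensity was 0.936%. The 6 did not share 1 order of livers. Rnu3a, the U3 RNA that processes ribosomal RNA, measured 4.81 in liver 5, 6.87 in the median liver and 8.72 in liver 1, with an SD of 1.55. Snora73b measured 8.08 in liver 5, 9.60 in the median liver and 10.30 in liver 3, and Snora73a 7.86, 9.46 and 9.94 in the same livers. For these 3 RNAs livers 1, 3 and 6 were the highest, in differing order.

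Snord14e went the other way, with 6.37 in liver 1, 8.41 in the median liver and 9.09 in liver 4, and an SD of 0.87. Snora16a ranged from 7.59 in liver 5 to 9.32 in liver 1 with liver 8 second, and Rnu12 from 5.48 in liver 5 to 6.89 in liver 3. Mir122, the locus of the main hepatocyte microRNA, measured 5.82 in liver 5, 6.33 in the median liver and 7.39 in liver 1. All were chosen after their values were seen.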
